A study of Homo sapiens with 6 samples.

Results

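A stretch of the long arm of chromosome 16, set by coordinate and named here 16q22 to 16q24, carried 258 genes that met a fixed rule. The count tables listed 57820 genes, of which 17480 had at least 10 counts in every sample. The rule took genes on chromosome 16 that start at 65000000 or later in GRCh37 and have at least 10 reverse-stranded counts in each of the 6 samples, and it left out CTCF and genes whose names start with CDH. Of 696 genes listed there, 432 fell under 10 counts in some sample and 6 were left out by name (CTCF, CDH1, CDH3, CDH5, CDH13 and CDH15). The region was proposed because its genes differed between the genotypes in these same samples, so every difference between the genotypes below is a description and no test is given for a member. Among the 258 members, 203 were annotated as protein-coding and 34 as long non-coding RNAs, and all 258 passed the filter on low counts.

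The samples were untreated AID-DIvA cells, a derivative of the human osteosarcoma line U2OS that carries the restriction enzyme AsiSI in an inducible, auxin-degradable form. Total RNA was sequenced from 3 samples of WT cells and 3 samples of ARID1A-KO cells, numbered 3 to 5 in each genotype. No break was induced in any of them. ARID1A-KO cells were made by electroporation of Cas9 with 2 guides against the first exon of ARID1A, and knockout clones were isolated. The sources used here do not say which clone, or how many clones, gave the RNA, nor that the samples were separate cultures, so loss of ARID1A and the history of a clone cannot be told apart. ARID1A itself was at 173 ± 6.67 CPM (counts scaled for library size; mean ± SD, n = 3) in WT and 25.9 ± 1.38 CPM in ARID1A-KO samples, and no ARID1A-KO sample reached a WT level. Of 8 osteosarcoma and mesenchymal markers, COL1A2 and TWIST1 were under 1 TPM, a level scaled for gene length and depth, in every sample, and the 8 moved in different directions. VIM was at 1443 to 1719 TPM in WT and 2623 to 2950 TPM in ARID1A-KO samples and carried the sum of the list (2251 to 2478 and 3100 to 3413 TPM). The means of SPARC (515 and 277 TPM), COL1A1 (149 and 108 TPM), CDH2 (112 and 67.7 TPM) and ALPL (10.5 and 1.92 TPM) were lower in ARID1A-KO samples, and RUNX2 was at 5.42 to 6.67 TPM in WT and 4.42 to 7.79 TPM in ARID1A-KO samples. All 4 haematopoietic markers, both endothelial markers matched, and KRT5 and CDH1 among the 4 epithelial markers were under 1 TPM throughout. The summed epithelial level was 7.16 to 9.87 TPM in WT and 9.32 to 9.75 TPM in ARID1A-KO samples, with means of 6.72 and 9.08 TPM for EPCAM and of 1.34 and 0.127 TPM for KRT14. The part of these marker differences in the results below was not tested. Reverse-stranded counts per sample ranged from 54512105 to 84088708.

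ARID1A is the DNA-binding subunit that defines the BAF form of the SWI/SNF chromatin remodeling complex, which moves and evicts nucleosomes and thereby changes access to promoters and enhancers. The members lie next to each other on the chromosome and belong to many pathways: they include the telomere protein gene TERF2, the splicing factor gene SF3B3, the Fanconi anemia gene FANCA, the ribosomal protein gene RPL13 and the amino acid transporter gene SLC7A5. A change that such neighbours share is measured as the median over a stretch of chromosome, and a member that departs from it is measured against its own neighbours.

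Promoter sequences of 178 members could be matched to RefSeq (236 windows, GRCh38.p14, each 250 bases before to 50 after a transcription start). The motifs were searched on both strands. The AsiSI recognition site GCGATCGC, where the enzyme of this cell line cuts once it is induced, was in 4 member windows (1.69%), in 0.208% of all 35116 RefSeq windows and in 0.286% of the 17498 windows of genes with at least 10 counts in every sample. The 4 windows belong to 3 members, since both of IST1 overlap and hold the same site. The GC box GGGCGG was in 70.8% of member windows and 64.0% of windows of expressed genes, the TATA box TATAAA in 2.12% against 6.62%, and the TPA response element TGANTCA, the letters recognised by AP-1 factors, in 5.08% against 5.65%. A match is a description of the letters and does not show that a factor binds or that AsiSI cuts there.

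The 3 members with an AsiSI site are shown because AsiSI makes the study's breaks, with the site in capitals and the 250 bases before the start 5′ to 3′. The study's list of analysed breaks holds none on chromosome 16, and cutting at these 3 sites was not tested. They come from chr16:71895243-71895492 on the plus strand for IST1, chr16:88703582-88703831 on the minus strand for RNF166 and chr16:71489325-71489574 on the minus strand for ZNF19 (all GRCh38.p14).
IST1: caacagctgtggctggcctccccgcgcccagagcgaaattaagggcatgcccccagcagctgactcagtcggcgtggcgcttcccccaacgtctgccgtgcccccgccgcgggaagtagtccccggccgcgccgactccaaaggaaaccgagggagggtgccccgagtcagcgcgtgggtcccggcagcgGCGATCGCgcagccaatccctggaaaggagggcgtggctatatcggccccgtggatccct
RNF166: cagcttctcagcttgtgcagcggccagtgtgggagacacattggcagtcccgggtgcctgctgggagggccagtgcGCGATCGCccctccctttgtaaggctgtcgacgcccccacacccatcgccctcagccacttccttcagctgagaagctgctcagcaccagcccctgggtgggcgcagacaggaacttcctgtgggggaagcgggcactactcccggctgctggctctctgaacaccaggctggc
ZNF19: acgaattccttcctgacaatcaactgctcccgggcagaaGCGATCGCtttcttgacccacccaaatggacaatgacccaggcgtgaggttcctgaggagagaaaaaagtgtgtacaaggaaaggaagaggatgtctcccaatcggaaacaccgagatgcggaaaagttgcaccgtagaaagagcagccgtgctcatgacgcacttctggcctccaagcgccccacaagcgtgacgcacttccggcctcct

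IST1, which acts with the ESCRT machinery in membrane scission, had 142.3, 152.4 and 138.5 CPM in the WT and 242.1, 234.6 and 220.9 CPM in the ARID1A-KO samples numbered 3, 4 and 5, the order used throughout. The log2 fold change was 0.69 ± 0.06 (SE). RNF166, a ubiquitin ligase gene, went from 8.20 ± 0.927 to 10.9 ± 0.534 CPM (log2 fold change 0.42 ± 0.11). ZNF19, a zinc finger gene, went from 2.25 ± 0.247 to 3.52 ± 0.322 CPM (log2 fold change 0.64 ± 0.15). In all 3 the ARID1A-KO samples lay above the WT samples, and their values were within 0.11 of the median of their neighbours on the log2 scale, as measured below.

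The next 3 promoters belong to members that stood far from their neighbours. OSGIN1 (chr16:83952990-83953239, plus strand) is shown with its TGANTCA match in capitals. C16orf74 (chr16:85751097-85751346, minus strand) and SPATA2L (chr16:89701706-89701955, minus strand) are shown with 5 and 4 GC boxes in capitals, of which a pair overlaps in SPATA2L. The 3 windows came from the same genome build and also cover 250 bases each.
OSGIN1: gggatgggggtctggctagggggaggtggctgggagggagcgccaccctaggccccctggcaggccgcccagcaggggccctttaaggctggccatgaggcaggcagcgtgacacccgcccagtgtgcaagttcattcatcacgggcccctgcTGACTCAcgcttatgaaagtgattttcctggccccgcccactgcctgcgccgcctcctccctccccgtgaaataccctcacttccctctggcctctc
C16orf74: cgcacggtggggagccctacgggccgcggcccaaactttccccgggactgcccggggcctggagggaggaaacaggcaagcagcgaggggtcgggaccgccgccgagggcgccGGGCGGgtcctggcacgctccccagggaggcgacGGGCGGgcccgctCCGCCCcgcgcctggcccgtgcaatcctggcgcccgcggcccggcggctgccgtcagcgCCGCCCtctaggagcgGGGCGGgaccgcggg
SPATA2L: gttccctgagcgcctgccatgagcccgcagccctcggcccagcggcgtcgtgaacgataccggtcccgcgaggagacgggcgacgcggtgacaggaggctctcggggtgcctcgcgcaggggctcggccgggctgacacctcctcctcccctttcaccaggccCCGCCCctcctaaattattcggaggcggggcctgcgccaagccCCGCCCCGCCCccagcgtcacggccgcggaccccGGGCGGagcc

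C16orf74 was lower and SPATA2L higher in ARID1A-KO cells, although both windows were rich in C and G (80.4% and 74.8%) and held several GC boxes. Their values are given with the departing members below.

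Most of the region was at a higher level in ARID1A-KO than in WT cells. The median log2 fold change of the 258 members was 0.41 (1.33-fold), with quartiles of 0.071 and 0.68, while the median of all 19599 genes tested was 0.0066. Positive values were found for 203 members and negative values for 55. By an adjusted p under 0.05 in edgeR, 139 members (53.9%) were called higher and 18 (6.98%) lower, where 17.8% of all genes tested were called higher and 18.4% lower (36.2% in either direction). All ARID1A-KO samples lay above all WT samples for 159 members and below them for 25, where 24.8% of all genes lay above and 24.8% below. The members' share of all counts was 0.999 to 1.03% in the WT and 1.33 to 1.37% in the ARID1A-KO samples. These counts describe how the region was chosen and are not evidence about it.

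**Figure D1:**
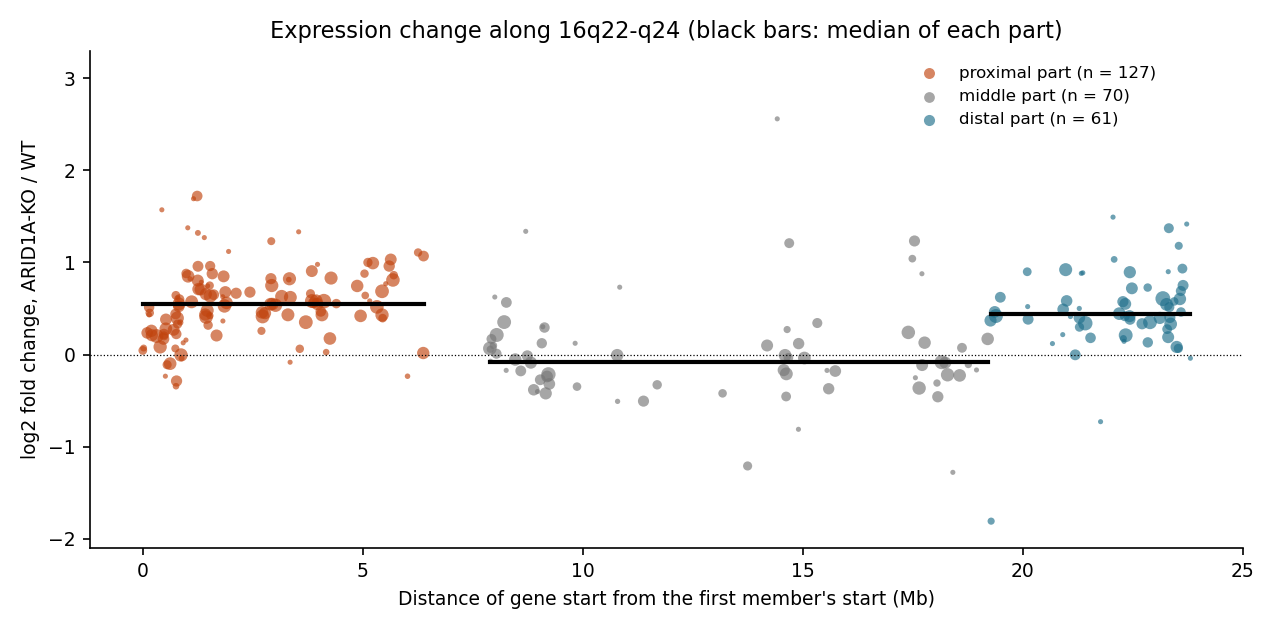
Log2 fold change of ARID1A-KO over WT for each of the 258 members against the distance of its start from the first member's start (Mb), with larger points for more highly expressed genes, colours for the 3 parts of the region and black bars for the median of each part. The medians are 0.55, −0.08 and 0.44, and the points of the proximal and distal parts lie mostly above 0 while those of the middle part lie on both sides of it.

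The difference was not even along the chromosome. In windows of 2 Mb the median was 0.43 to 0.91 from 66 to 74 Mb, between −0.38 and 0.24 from 74 to 86 Mb, and 0.41 to 0.69 beyond 86 Mb. The region was therefore described in 3 parts, with the middle part between starts of 74330673 and 85645015, limits that were set after the values were seen. The 127 members of the proximal part centred on a log2 fold change of 0.55 (median), with 118 positive values, 88 members called higher and 1 lower. The middle part (70 members) had a median of −0.08, with 28 positive and 42 negative values, 10 members (14.3%) called higher and 15 (21.4%) lower, near the 17.8% and 18.4% of all genes tested. The distal part (61 members) had a median of 0.44, with 57 positive values, 41 members called higher and 2 lower.

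The parts met in different ways. The last proximal member, RP5-991G20.4 at 72823142, whose type was not found in the annotation, had a log2 fold change of 1.07, and the first middle member, the proteasome subunit gene PSMD7 at 74330673, had one of 0.07, with 1.51 Mb free of members between their starts. At the other boundary, GSE1 at 85645015 had a log2 fold change of 0.17 and GINS2 at 85709804 one of 0.37, with starts only 64.8 kb apart. The proximal part also began gradually. The first 36 members, which start up to 67360701, had a median of 0.23, with 14 called higher and 1 lower, and the 91 members after them had a median of 0.65, with 74 called higher and 0 lower by edgeR, also at an unadjusted p under 0.05 and by DESeq2.

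The limits of the 3 parts were set on values of these same samples, so medians per sample describe the spread between samples and are no separate support for the parts. Each ARID1A-KO sample was set against the mean log2 CPM of all WT samples, and each WT sample against the mean of the other WT samples. The median over proximal members was 0.556, 0.564 and 0.531 in ARID1A-KO samples 3, 4 and 5, and −0.035, 0.086 and −0.024 in the WT samples. The middle members had medians of −0.036, −0.061 and −0.078 in ARID1A-KO and of −0.013, −0.012 and 0.009 in WT samples. In the distal part the medians were 0.419, 0.50 and 0.453 in ARID1A-KO and −0.029, 0.059 and 0.018 in WT samples. No ARID1A-KO sample overlapped a WT sample in the proximal or distal part, and in the middle part the ARID1A-KO samples lay just below the WT samples.

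**Figure D2:**
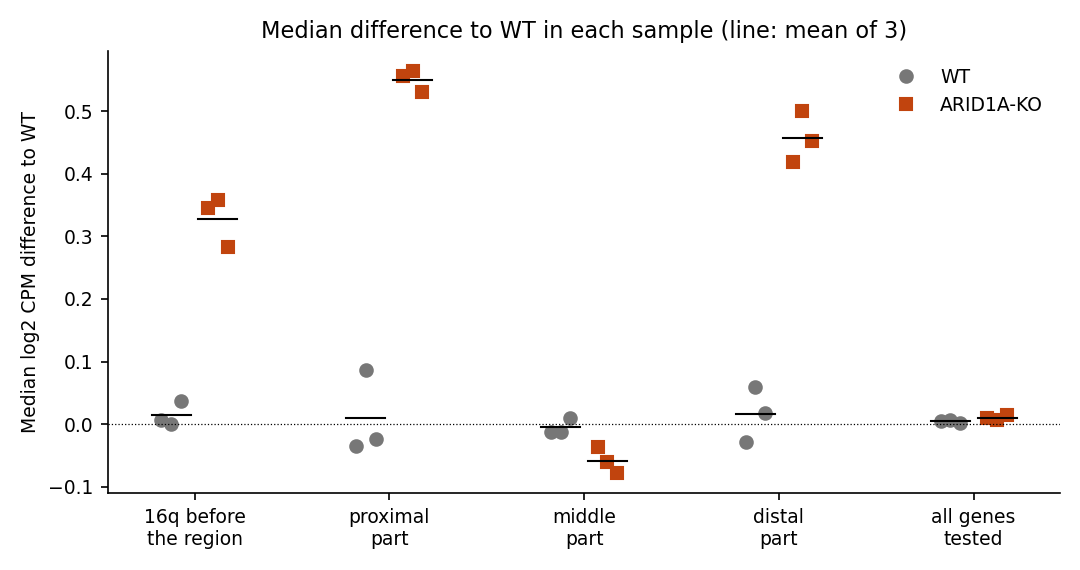
Median over genes of the log2 CPM difference to the WT mean (vertical axis) in each of the 6 samples, for 16q before the region, the 3 parts and all genes tested. For a WT sample, the WT mean is that of the other WT samples. The line is the mean of 3 samples. The ARID1A-KO samples lie at 0.531 to 0.564 in the proximal part and at 0.419 to 0.50 in the distal part, and at −0.078 to −0.036 in the middle part.

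Outside the region, the 84 genes of 16q that start before 65000000 centred on a log2 fold change of 0.31 (median), with 54 (64.3%) called higher and 6 (7.14%) lower. The 417 genes of 16p centred on 0.08, with 80 (19.2%) called higher and 33 (7.91%) lower. A positive median was thus also found on 16q before 65000000, with a larger share called higher than the 53.9% of the members. The higher level was therefore not particular to the region. The last genes before it were RP11-368L12.1 (log2 fold change 0.22 ± 0.32) and the cadherin gene CDH11, which went from 18.9 to 12.7 CPM (−0.57 ± 0.12). The first members after it were LINC00920 (0.04 ± 0.18) and BEAN1 (0.07 ± 0.15). At the count minimum, CTD-2033A16.2 (−0.08 ± 0.34) and RP11-529K1.4 (0.98 ± 0.31) had 10 counts in their lowest sample, as did FAM157C, and LINC00922 (1.73 ± 0.25) and AC009061.1 (1.12 ± 0.30), each with 9 counts in their lowest sample, were just left out.

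Within each part the members scattered less as their level rose. In the proximal part, the distance between the quartiles of the log2 fold change was 0.728 in the 43 members with the lowest CPM, 0.521 in the next 42 and 0.220 in the 42 with the highest, and the medians of these groups were 0.61, 0.58 and 0.53. Over the same split the distances were 0.702, 0.496 and 0.295 in the middle part and 0.733, 0.300 and 0.199 in the distal part. Among the most expressed members, 35 of 42 proximal and 17 of 21 distal members were called higher and 0 lower by edgeR, also at an unadjusted p under 0.05 and by DESeq2, and 3 of 23 middle members were called higher and 6 lower. Sampling error is larger at low counts, and its part in the wider scatter was not tested.

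The genes of the region were grouped by role in 7 lists, described here with the members of highest CPM. Of all genes tested, 17.8% were called higher and 18.4% lower. The shares called higher were 69.3% of proximal, 14.3% of middle and 67.2% of distal members, and those called lower 0.787%, 21.4% and 3.28%. The limits of the parts were set on these same values, so a list split by part largely repeats them. A part of role beyond position was not tested. The RNA processing and translation list had the highest median of the 7 lists, 0.58 over 19 members, with 16 called higher and 1 lower. Of its 15 proximal members, 14 were called higher. SF3B3, a subunit of the U2 spliceosomal particle, had 325.1, 357.3 and 338.6 CPM in WT and 547.5, 539.3 and 439.0 CPM in ARID1A-KO samples (log2 fold change 0.58 ± 0.09), so the lowest ARID1A-KO sample was still above the highest WT sample. AARS, the alanyl-tRNA synthetase gene, had 164.9, 206.6 and 164.5 CPM in WT and 289.2, 294.1 and 218.7 CPM in ARID1A-KO samples (0.58 ± 0.13). The lysyl-tRNA synthetase gene KARS lies in the middle part and did not share this, with 316.4, 352.7 and 334.4 CPM in WT and 313.1, 296.9 and 254.5 CPM in ARID1A-KO samples (−0.22 ± 0.08, not called, but called lower with no filter on low counts). The ARID1A-KO samples lay just below the WT samples in this gene.

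RPL13, a protein of the large ribosomal subunit, was the most highly expressed member per length, at 369 ± 9.04 TPM in WT and 561 ± 60.8 TPM in ARID1A-KO samples. Its CPM were 419.1, 445.3 and 446.1 in WT and 608.2, 686.4 and 702.1 in ARID1A-KO samples (log2 fold change 0.61 ± 0.07). RPL13 has processed copies elsewhere in the genome, and the counting could split reads between near-identical copies. NOB1, an endonuclease that matures the small ribosomal subunit, went from 133 ± 13 to 234 ± 18.2 TPM (0.82 ± 0.10), and it stood only 0.19 above its neighbours. The other members at the top by TPM were FAM96B (now CIAO2B, iron-sulfur cluster delivery; 205 to 247 TPM), KARS (288 to 246 TPM), SLC7A5 (206 to 259 TPM), PSMD7 (195 to 204 TPM), AARS (130 to 194 TPM) and the respiratory chain gene COX4I1 (129 to 171 TPM).

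The proteostasis and protein transport list held 29 members with a median of 0.51, of which 20 were called higher and 3 lower. By part, 12 of 14 proximal and all 7 distal members on the list were called higher, against 1 of 8 in the middle part, which held the 3 called lower. AP1G1, a subunit of the clathrin adaptor AP-1, had 143.7, 137.9 and 131.7 CPM in WT and 203.1, 195.2 and 193.4 CPM in ARID1A-KO samples (0.52 ± 0.06). The nuclear transport factor gene NUTF2 went from 135 ± 1.80 to 179 ± 11.7 CPM (0.41 ± 0.06). The proteasome lid gene PSMD7 had 164.6, 165.5 and 159.1 CPM in WT and 180.6, 168.0 and 163.8 CPM in ARID1A-KO samples (0.07 ± 0.06), with overlapping genotypes. A pair of ubiquitin-like proteins of autophagosomes, chosen after their values were seen, took opposite directions: MAP1LC3B in the distal part went from 72.6 ± 7.60 to 138 ± 11.1 CPM (0.92 ± 0.09), and GABARAPL2 in the middle part from 60.8 to 45.4 CPM (log2 fold change −0.42, called lower).

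The genes of DNA replication, repair, telomeres and centromeres were 11, with a median of 0.37, 8 called higher and 2 lower. FANCA, a core subunit of the Fanconi anemia ubiquitin ligase, had 65.29, 75.30 and 64.79 CPM in WT and 84.93, 89.31 and 84.28 CPM in ARID1A-KO samples (0.33 ± 0.07). RFWD3, a ubiquitin ligase of interstrand crosslink repair, was the only middle member of this list called higher, from 176 ± 5.15 to 225 ± 12.6 CPM (0.35 ± 0.06). ATMIN, a cofactor of the ATM kinase, had 92.76, 86.27 and 95.35 CPM in WT and 79.39, 78.55 and 79.24 CPM in ARID1A-KO samples (−0.21 ± 0.06). The call of ATMIN as lower was lost when ARID1A-KO sample 3 or 4 or WT sample 3 or 5 was left out, with log2 fold changes between −0.21 and −0.18, and also when libraries were scaled by the total count only (−0.16). CENPN, which recognises the centromeric nucleosome, was at 77.9 ± 1.01 CPM in WT and 77.5 ± 1.45 CPM in ARID1A-KO samples (−0.01 ± 0.05). A pair of shelterin genes, chosen after their values were seen, took opposite directions. TERF2 of the proximal part, whose protein binds telomeric DNA, went from 49.5 ± 2.48 to 72.4 ± 4.12 CPM (0.55 ± 0.07). TERF2IP of the middle part, which codes for the TERF2 partner RAP1, went from 39.1 ± 2.42 to 31.3 ± 0.740 CPM (−0.32 ± 0.07). TERF2IP overlaps KARS on the opposite strand, and both were lower in all ARID1A-KO samples.

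Transcription factors and chromatin genes numbered 28, with a median of 0.37, 16 called higher and 1 lower. E2F4, a repressor E2F of the cell cycle, had 97.17, 106.2 and 98.95 CPM in WT and 132.9, 134.4 and 130.5 CPM in ARID1A-KO samples (0.40 ± 0.06). ANKRD11, a chromatin regulator in the distal part, had 174.0, 175.8 and 163.9 CPM in WT and 215.1, 229.6 and 210.2 CPM in ARID1A-KO samples (0.35 ± 0.06). NFAT5, the factor of the response to osmotic stress, went from 83.0 ± 9.92 to 129 ± 8.16 CPM (0.63 ± 0.09), and the repressor gene ATXN1L from 108 ± 2.41 to 145 ± 7.02 CPM (0.43 ± 0.06). ATXN1L overlaps IST1 on the same strand, so their counts are not independent.

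The 26 metabolic and mitochondrial members had a median of 0.39, with 17 called higher and 1 lower. COX4I1, a subunit of cytochrome c oxidase, had 179.2, 190.3 and 194.5 CPM in WT and 260.6, 258.1 and 234.8 CPM in ARID1A-KO samples (0.42 ± 0.07). NQO1, a quinone reductase, had 90.08, 75.82 and 76.50 CPM in WT and 108.7, 104.4 and 113.8 CPM in ARID1A-KO samples (0.43 ± 0.08), which was 0.20 below the median of its neighbours. CYB5B, the cytochrome b5 of the outer mitochondrial membrane, went from 108 ± 1.18 to 157 ± 5.14 CPM (0.54 ± 0.06), and PDPR, a regulator of pyruvate dehydrogenase phosphatase with near-identical copies on the chromosome, from 170 ± 5.46 to 217 ± 7.30 CPM (0.35 ± 0.06).

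Of 9 transporters, channels and membrane receptors, 5 were called higher and 0 lower by edgeR, with a median of 0.53, and 0 were lower at an unadjusted p under 0.05 or by DESeq2. All 4 proximal members of this list were called higher, and 0 of the 4 distal ones by edgeR, where 2 had an unadjusted p under 0.05 and DESeq2 called 1. The amino acid transporter gene SLC7A6 had 121.4, 119.5 and 123.4 CPM in WT and 178.6, 172.7 and 173.9 CPM in ARID1A-KO samples (0.53 ± 0.05). SLC12A4, a potassium chloride cotransporter that overlaps LCAT, went from 101 ± 6.41 to 158 ± 4.69 CPM (0.64 ± 0.07). In the distal part, SLC7A5, the gene of the LAT1 transporter, had 308.6, 322.2 and 261.9 CPM in WT and 410.0, 433.7 and 286.4 CPM in ARID1A-KO samples (0.34 ± 0.15). The lowest ARID1A-KO sample lay among the WT samples. Without that sample the log2 fold change was 0.50 and the gene was called higher, as it was by DESeq2 (0.34), with no filter on low counts (0.33) and with the replicate number as a block (0.32). The mechanosensitive channel gene PIEZO1 was at 188 ± 13.7 and 218 ± 22.6 CPM (0.21 ± 0.09), with overlapping genotypes.

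Signalling, adhesion and cytoskeleton genes had the lowest median of the lists, 0.32 over 27 members, with 12 called higher and 1 lower. COTL1, an actin-binding protein gene of the middle part, was at 275 ± 24.3 and 260 ± 2.49 CPM (−0.08 ± 0.07). DYNC1LI2, a dynein light intermediate chain, was at 187 ± 22.3 and 215 ± 4.75 CPM (0.20 ± 0.09, not called). The formin gene FHOD1 went from 71.7 ± 5.58 to 105 ± 6.47 CPM (0.55 ± 0.08), while the neighbouring gene PLEKHG4 had 134.9, 110.4 and 141.0 CPM in WT and 118.1, 128.9 and 138.0 CPM in ARID1A-KO samples (−0.00 ± 0.10). The genotypes overlapped fully in PLEKHG4.

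**Figure D3:**
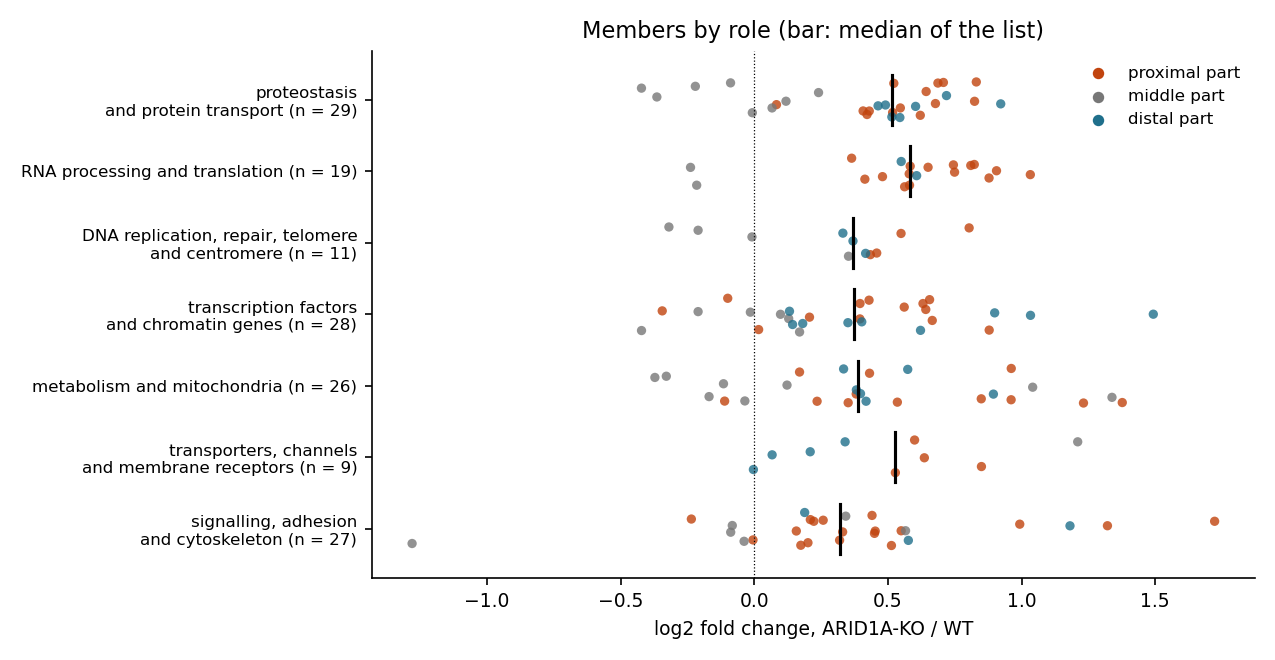
Log2 fold change of ARID1A-KO over WT (horizontal axis) of the members of 7 role lists, coloured by the part of the region, with the median of each list as a bar. The list medians lie between 0.32 and 0.58, and within the lists the middle members lie mostly to the left of the proximal and distal ones. The limits of the parts were set on these same values.

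Each member was also set against its neighbours. The departure of a member is its log2 fold change minus the median of the other members that start within 2.5 Mb of it. Of 214 members with a mean log2 CPM of at least 0, 121 departed by less than 0.25, 16 by more than 0.5 upwards and 12 by more than 0.5 downwards. Over all 17480 genes with at least 10 counts in every sample, the log2 fold change had quartiles of −0.23 and 0.25. A spread of this size is thus not particular to the members, and departures from neighbours were not measured for other genes. The 8 largest departures in each direction follow. They were chosen on values of these same samples, so a gap between the genotypes in them is largely given by the choice.

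C16orf74 (ENSG00000154102.6, minus strand, 85723690 to 85784735), which codes for a small protein of little-known function, departed furthest downwards. Its levels were 4.017, 3.564 and 5.086 CPM in WT and 0.984, 1.46 and 1.18 CPM in ARID1A-KO samples, a log2 fold change of −1.81 ± 0.20 where its 41 neighbours had a median of 0.24. All ARID1A-KO samples lay far below the WT samples. The gene next to it on the same strand, GINS2, a subunit of the replicative helicase chosen here for its position, went from 42.0 ± 2.41 to 54.3 ± 1.07 CPM (0.37 ± 0.06).

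RP11-525K10.3 (DYNLRB2-AS1, ENSG00000259867.1), a long non-coding RNA of the middle part, had 11.08, 7.312 and 10.64 CPM in WT and 3.981, 3.384 and 5.102 CPM in ARID1A-KO samples (log2 fold change −1.21 ± 0.19, departure −1.04). AC004158.2 (LINC01572) was at 1.26 ± 0.263 and 1.06 ± 0.235 CPM (−0.24 ± 0.23), with overlapping genotypes, where its neighbours had a median of 0.57. PDXDC2P, annotated as a long non-coding RNA and with near-identical copies on chromosome 16, was at 4.26 ± 0.288 and 4.44 ± 0.982 CPM (0.06 ± 0.17). It overlaps another entry of the same name on the same strand.

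Among the downward departures, CES3, CBFB, HSF4 and KIAA0895L start between 66995140 and 67209505, in the first stretch of the proximal part, where the median was lower than in the rest of it. CBFB, the common partner of the RUNX transcription factors, had 78.17, 81.61 and 76.43 CPM in WT and 72.90, 74.15 and 73.48 CPM in ARID1A-KO samples (−0.10 ± 0.06), while its neighbours within 2.5 Mb had a median of 0.52. KIAA0895L (MATCAP1), a protease that removes the terminal tyrosine of tubulin, had 27.68, 29.78 and 25 CPM in WT and 22.14, 21.02 and 24.38 CPM in ARID1A-KO samples (−0.29 ± 0.09) and was the proximal member called lower. That call was lost without ARID1A-KO sample 3 or 4 or WT sample 3 or 4, with log2 fold changes of −0.29 to −0.23, and with total-count scaling (−0.24). HSF4, a heat shock factor known from the lens, was at 1.99 ± 0.258 and 1.56 ± 0.407 CPM (−0.34 ± 0.21), and the carboxylesterase gene CES3 at 6.43 ± 0.533 and 5.95 ± 0.459 CPM (−0.11 ± 0.12). The genotypes overlapped in both, and HSF4 overlaps FBXL8. Without ARID1A-KO sample 5, HSF4 was called lower (−0.59).

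PKD1L2 had the largest upward departure, 1.38. This polycystin-like membrane protein gene had 8.094, 5.804 and 6.564 CPM in WT and 12.57, 13.21 and 21.43 CPM in ARID1A-KO samples (log2 fold change 1.21 ± 0.21), with the highest ARID1A-KO sample well above the others. OSGIN1 (ENSG00000140961.8, plus strand, 83981887 to 83999937), an oxidative stress response gene, had 14.70, 13.81 and 15.57 CPM in WT and 34.02, 37.16 and 32.48 CPM in ARID1A-KO samples (1.23 ± 0.08), and its 27 neighbours had a median of −0.11. MLYCD, the malonyl-CoA decarboxylase gene just before it, had 1.949, 2.155 and 1.959 CPM in WT and 3.848, 4.003 and 4.624 CPM in ARID1A-KO samples (1.04 ± 0.14). In these 3 middle members all ARID1A-KO samples lay above all WT samples. OSGIN1 and MLYCD both overlap RP11-505K9.4 on the same strand, so their counts may not be independent.

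RLTPR (CARMIL2, ENSG00000159753.9, plus strand, 67678822 to 67691472), a regulator of actin capping protein, had 7.794, 9.735 and 9.158 CPM in WT and 29.70, 33.66 and 24.79 CPM in ARID1A-KO samples. The log2 fold change of 1.72 ± 0.13 stood against a median of 0.51 for its 91 neighbours. PARD6A, a cell polarity gene that follows it on the same strand, had 0.869, 0.634 and 1.048 CPM in WT and 1.63, 2.402 and 2.318 CPM in ARID1A-KO samples (1.32 ± 0.23, departure 0.81). Every ARID1A-KO sample was above every WT sample in both.

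The distal part holds 3 departing members. SPATA2L (ENSG00000158792.11, minus strand, 89762751 to 89768113) had 6.04, 6.016 and 7.285 CPM in WT and 15.07, 17.72 and 17.24 CPM in ARID1A-KO samples (1.37 ± 0.11, departure 0.93). TUBB3, the beta-tubulin known from neurons, had 2.638, 1.86 and 2.388 CPM in WT and 5.053, 5.895 and 4.681 CPM in ARID1A-KO samples (1.18 ± 0.17, departure 0.76). ZNF469, a zinc finger gene, had 0.69, 0.789 and 0.378 CPM in WT and 1.102, 2.293 and 1.909 CPM in ARID1A-KO samples (1.49 ± 0.32, departure 1.05). The genotypes were apart in all 3, and ZNF469 had the lowest levels and the widest spread.

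**Figure D4:**
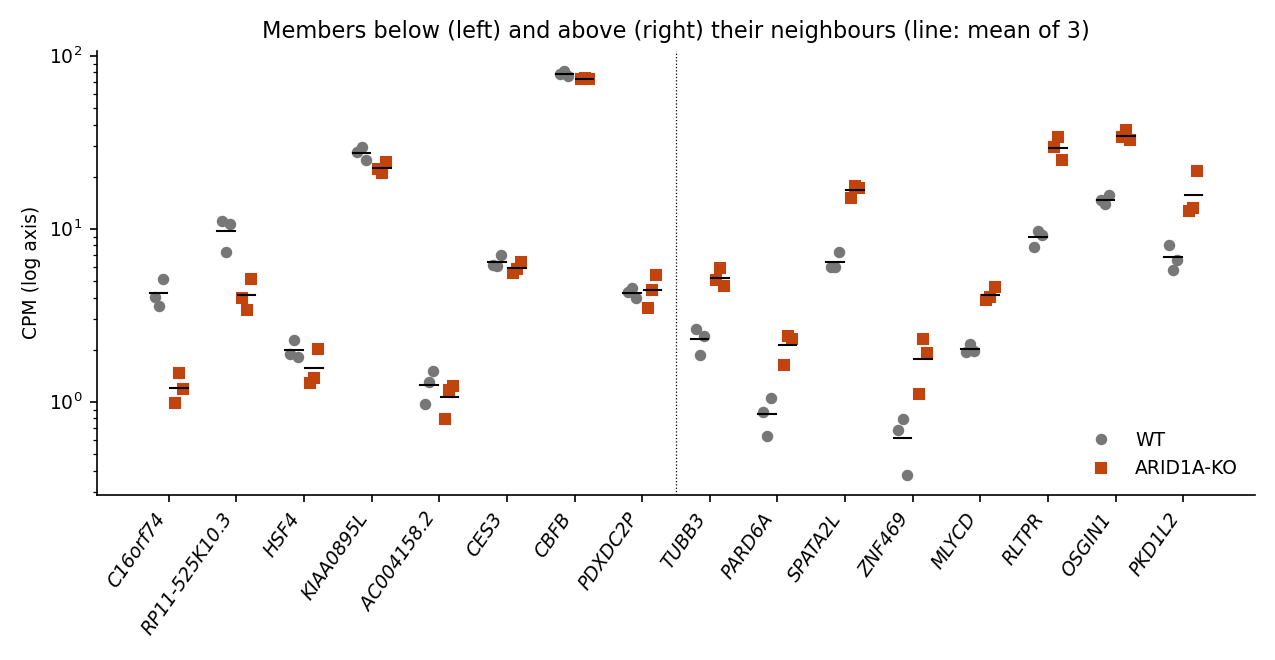
CPM on a log axis in the 3 WT (circles) and 3 ARID1A-KO (squares) samples of the 8 members that departed most below (left) and the 8 that departed most above (right) their neighbours; the line is the mean of 3 samples. The genotypes are apart in all 8 on the right and, on the left, in C16orf74, RP11-525K10.3, KIAA0895L and CBFB. The members were chosen by their difference in these samples. Of all genes tested, 24.8% had every ARID1A-KO sample above every WT sample and 24.8% below.

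Long non-coding members had wider quartiles than protein-coding ones. The 34 had a median of 0.58 with quartiles of 0.05 and 0.88, and the 203 protein-coding members one of 0.42 with quartiles of 0.11 and 0.65. Members of low level also scattered more, as given above, and the part of level in this difference was not tested. The genes that follow were chosen after their values were seen. The largest value of the region, 2.56 ± 0.30, was that of RP11-314O13.1 (ARLNC1) in the middle part, with 0.435, 0.155 and 0.275 CPM in WT and 1.616, 1.874 and 1.625 CPM in ARID1A-KO samples. At the end of the proximal part, the transcription factor gene ZFHX3 was at 57.0 ± 3.50 and 57.7 ± 3.06 CPM (0.02 ± 0.07), with overlapping genotypes. RP5-991G20.4, which has no type in the annotation and is not one of the 34, lies on the opposite strand inside the span of ZFHX3 and had 12.47, 12.12 and 11.98 CPM in WT and 27.51, 26.13 and 23.14 CPM in ARID1A-KO samples (1.07 ± 0.09). The count tables used here were reverse-stranded, so reads of the gene and of the opposite strand were counted apart.

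Some counts are uncertain because genes share reads. Overlap on the same strand with another gene that had counts was found for 89 members, among them CKLF, CMTM1, COG8, PDF, ATXN1L, IST1, SLC12A4, LCAT, HSF4 and FBXL8. NPIPB15, CLEC18A, CLEC18B, PDXDC2P, PDPR and FAM157C belong to families with near-identical copies.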

How the data were processed

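RNA-seq of 6 samples was used, 3 of WT and 3 of ARID1A-KO AID-DIvA cells, grouped by the genotype in the labels. Libraries were prepared from total RNA with a stranded kit and sequenced in paired-end mode, although the labels name the molecule as polyA RNA. The authors mapped reads to GRCh37 with STAR, counted them by gene with featureCounts and deposited the counts unnormalized, for the reverse, forward and unstranded settings. The authors also deposited TPM values per gene, which account for gene length and depth. Tool versions are not given in the sources used here. Other assays of the study were not analysed here.

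After the filterByExpr filter on low counts, reverse-stranded counts were scaled by TMM factors and fitted in edgeR 4.0.16 under R 4.3.3 with a quasi-likelihood model of genotype over all 6 samples and no covariate. This left 19599 genes. Called means an adjusted p under 0.05 (Benjamini-Hochberg over all genes tested), the threshold of the study. CPM use the TMM library sizes. The SE of a log2 fold change is its absolute value divided by the square root of the F statistic of the edgeR test. The authors' reverse-stranded counts summed to 54512105 to 84088708 per sample, so counting error matters mainly at the lowest members. Summaries used Python 3.11.15. Where the samples are no separate cultures, SD and SE cover only the spread between these samples.

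The members, the role lists and the comparisons were chosen with earlier results of these data known, and the role lists were revised for gene function after values were seen. The genes named were, among members with a mean log2 CPM of at least 0, the 8 with the largest departure from their neighbours in each direction, the 8 with the highest TPM, the 4 with the highest CPM in each role list, and 2 members on each side of the 65000000 start and of the count minimum. Others are marked as chosen after their values were seen or are given only as examples of counts. Gene types and current symbols come from a GENCODE annotation of GRCh37, in which 247 of 258 members were found, and promoter sequences from RefSeq (GRCh38.p14). Gene coordinates are those of the files (GRCh37).

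The alternatives were DESeq2 1.42.0, RLE or total-count scaling, unstranded counts, no filter on low counts, at least 10 counts in every sample, a count minimum of 100 for members, the replicate number as a block, an adjusted p under 0.01, leaving out single samples, a start at 70000000, protein-coding members alone and neighbours within 1 or 5 Mb. Shifted limits of the middle part (0.5 Mb) and members without overlap on the same strand were added after seeing the data. On simulated counts of 19599 genes with 200 changed in the same design, edgeR recovered 137 with 11 false calls, and DESeq2 138 with 34. In the data themselves 36.2% of genes tested were called, a far larger share than was changed in the simulation. These figures therefore do not give the recovery or the false calls of the data.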

Additional observations from a re-analysis of the deposited data

Results flagged for a closer look

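The forward-strand counts, which the comparisons above did not use and which made up 5.83 to 6.15 counts for every 100 reverse-stranded ones, also differed between the genotypes. Summed over the proximal members they were 292.7 ± 5.11 CPM in WT and 442.5 ± 6.72 CPM in ARID1A-KO samples (n = 3 each), a ratio of 1.51. Over the distal members they were 41.4 ± 2.87 CPM in WT and 54.9 ± 2.87 CPM in ARID1A-KO samples, a ratio of 1.33. The middle members had a ratio of 1.04. The reverse-stranded counts of the same members had ratios of 1.43 in the proximal, 0.98 in the middle and 1.38 in the distal part. Whether the forward-strand counts hold anything beyond the reverse-stranded ones was not tested. In the proximal and distal parts every ARID1A-KO sample lay above every WT sample. Forward-strand counts of a member can include reads of a gene on the opposite strand, whose part in these sums was not tested.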

How the results depend on the processing

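No median of the members or of the 3 parts, no departure of the 16 members given above and no log2 fold change of a called member among the 50 named changed sign under the alternatives run; those of 5 named members that were not called and lay near 0 did (PDXDC2P, CENPN, PLEKHG4, LINC00920 and CTD-2033A16.2, at −0.11 to 0.14). Scaling by the total count only gave median log2 fold changes of 0.46 over all members, 0.60 in the proximal, −0.029 in the middle and 0.49 in the distal part. The middle part had a median of −0.066 with unstranded counts and of −0.054 for protein-coding members. With its limits 0.5 Mb later it had −0.0887, and without members that overlap on the same strand it had −0.0884, where the distal part had 0.50; both settings were chosen after seeing the data. Members from 70000000 on had a median of 0.35, with 97 called and 80 of them higher. At an adjusted p under 0.01, 10 members were called lower. Leaving out each sample in turn gave medians of 0.392 to 0.432 over all members, 0.539 to 0.553 in the proximal, −0.085 to −0.027 in the middle and 0.415 to 0.470 in the distal part, with 134 to 153 members called, 122 to 136 higher and 12 to 17 lower. Same-numbered samples did not deviate together in every pair (r = −0.23, 0.46 and 0.29), so the numbers were not taken to pair the samples; with a replicate block 165 members were called, 147 higher and 18 lower, and the median was 0.41. Of 649 values of the 50 named members, 621 kept their side of the threshold, 19 lost the call and 9 gained it. Besides KIAA0895L and ATMIN, 2 of the 4 members whose call was lost without a single sample were FAM96B (0.23 to 0.27 without ARID1A-KO sample 3 or 4 or WT sample 3 or 5) and RP11-529K1.4 (0.80 to 0.97 without ARID1A-KO or WT sample 4 or 5, and 0.99 by DESeq2). PIEZO1 was called higher without ARID1A-KO sample 3 (0.29), with no filter on low counts (0.20) and with the replicate block (0.21). Of 240 departures, 236 moved by less than the spread between samples. Depth limits the members with the lowest counts.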
